A study of Mus musculus with 360 samples.

Results

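Cdkn1a encodes p21, an inhibitor of cyclin-dependent kinases, and its transcript was measured by 1 probe in 5 tissues of female mice exposed to 1,2-dichlorobenzene or 1,4-dichlorobenzene. It is 1 of 2759 genes and its row is 1 of 3154 probe rows in the deposited count table. The gene was chosen by its low level in the livers of mice given 10 and 30 ppm 1,2-dichlorobenzene and by its opposite course to Dbp in the same animals. The liver changes with 1,2-dichlorobenzene and the relation to Dbp are therefore given below as descriptions, with no test.

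The animals were female B6D2F1/Crl (BDF-1) hybrid mice, 9 weeks of age by the labels, and tissue was taken on study day 5. The 1,2 series held 37 mice given 0, 1, 10, 30, 100 or 250 ppm. The 1,4 series held 35 mice given 0, 1, 10, 50, 150 or 400 ppm, so the series share 1 and 10 ppm and each has its own 0 ppm mice. All groups share strain, sex, age and study day, and the route of exposure is not given in the sources used here. RNA was read with the TempO-Seq S1500+ assay, in which pairs of short detector oligonucleotides are ligated on their target RNA and counted by sequencing. Of 360 libraries, the 326 that the submitters marked as used in their analysis were taken here.

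p21 binds complexes of cyclins and cyclin-dependent kinases and stops the cell before DNA is copied, and it also binds PCNA, the sliding clamp of DNA polymerases. Its gene is a classic target of the tumour suppressor p53, which raises it after DNA damage, and it can also be driven without p53. In liver p21 restrains hepatocyte division, and its transcript is known to follow a daily rhythm. Dbp encodes a transcription factor of the circadian output, whose own transcript swings widely over the day.

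The gene lies on mouse chromosome 17 from 29090976 to 29100727 on the plus strand (GRCm38, GENCODE annotation, ENSMUSG00000023067). RefSeq gives 2 promoter windows for it on GRCm38.p6, each of 250 bases, chr17:29090729-29090978 and chr17:29093519-29093768 on the plus strand. They are shown because p53 and clock factors are the regulators that the gene lists below stand for. Capitals mark matches to the motifs that were searched.
Cdkn1a promoter window 1: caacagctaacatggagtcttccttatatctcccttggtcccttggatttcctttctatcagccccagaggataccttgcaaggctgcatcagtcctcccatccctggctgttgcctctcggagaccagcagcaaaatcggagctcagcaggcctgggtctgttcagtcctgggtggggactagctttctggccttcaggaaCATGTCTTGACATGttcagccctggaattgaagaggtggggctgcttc
Cdkn1a promoter window 2: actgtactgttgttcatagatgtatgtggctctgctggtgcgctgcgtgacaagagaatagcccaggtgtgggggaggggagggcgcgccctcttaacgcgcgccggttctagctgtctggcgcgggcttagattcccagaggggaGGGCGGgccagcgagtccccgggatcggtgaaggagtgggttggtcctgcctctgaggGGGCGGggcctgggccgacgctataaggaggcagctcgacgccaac
The searched motifs were CATGNNNNNNCATG, the paired core of a p53 element, the E-box CACGTG, the D-box TTANGTAA bound by Dbp and its relatives, and the GC box GGGCGG, all on both strands. The first window holds 1 match to the p53 core pair, from 48 to 35 bases before the RefSeq start, the base that follows the window (29090931 to 29090944), a pattern held by 0.49% of 32851 promoter windows. The second window holds 2 GC boxes, a motif held by 32.7% of windows. No E-box (held by 6.02% of windows) and no D-box (2.06%) was matched in these windows, which says only that these letters are not there.

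Depth was high for a single probe in most libraries. Median totals were 20075258 counts in lung, 19434619 in liver, 12488657 in kidney, 12267754 in heart and 5926930 in ovary. The lowest count of the Cdkn1a probe in any library was 9, in liver, where the median was 318. Its counts ran from 434 to 4953 in lung, from 62 to 945 in heart, from 37 to 501 in kidney and from 68 to 1589 in ovary. Levels are given as CPM, counts scaled to a common library size with edgeR's TMM factors within each tissue. Each tissue stood high in its own marker list, with summed medians of 131573 CPM for hepatocyte genes in liver, 28172 CPM for the 1 lung epithelium probe in lung (5917 CPM in liver) 262606 CPM for cardiomyocyte genes in heart and 2270 CPM for steroid and granulosa cell genes in ovary. The kidney tubule list rested on 1 probe of 8 genes listed, at a median of 1559 CPM in kidney and 0 in the other tissues. In bulk tissue, fewer cells of a type and less RNA per cell cannot be told apart.

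Without exposure Cdkn1a stood highest in lung and lowest in kidney and liver. In the 0 ppm mice of both series its level was 98.5 ± 22.6 CPM (SD, n = 20) in lung, 57.2 ± 49.5 (SD, n = 20) in ovary and 31.4 ± 10.2 (SD, n = 20) in heart. It was 19.1 ± 10.6 CPM (SD, n = 16) in liver and 18.3 ± 7.56 (SD, n = 11) in kidney. In ovary 1 mouse at 256 CPM widened the spread, and the median there was 46.8 CPM. On the log2 scale lung exceeded ovary by 0.98 (permutation test, p = 2e-05, the smallest that 100000 permutations can give, adjusted p = 8e-05). Ovary exceeded heart by 0.69 (permutation test, adjusted p = 0.000373) and heart exceeded kidney by 0.80 (permutation test, adjusted p = 0.000373). Kidney and liver did not differ beyond their spread, at 0.07 (permutation test, adjusted p = 0.811). These tests were unpaired, although the tissues came from the same mice. With the mouse as a block, permutation adjusted p was 0.00064 for lung and ovary and 0.00064 for ovary and heart. It was 0.00235 for heart and kidney (11 mice) and 0.952 for kidney and liver (9 mice). These levels come from tissues normalized separately. With 1 set of TMM factors over all tissues the order became lung, heart, liver, ovary, kidney: ovary then stood 1.22 below heart (log2 difference -1.22, permutation test, adjusted p = 2e-05) and kidney 1.39 below liver (-1.39, permutation test, adjusted p = 2e-05). Lung stood first under both.

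**Figure D1:**
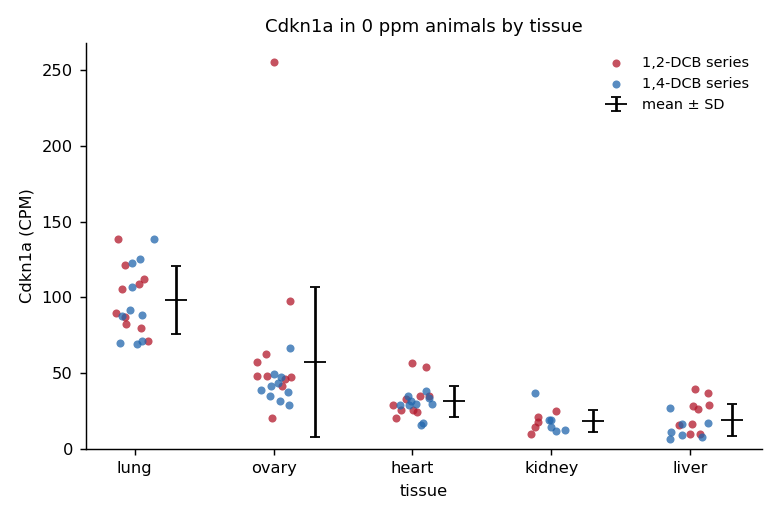
Cdkn1a level in the 0 ppm mice of each tissue (vertical axis, CPM, linear scale), 1 point a mouse coloured by series, with the mean and SD beside the points. Lung runs from 69.4 to 138.7 CPM, above every kidney and liver value, and 1 ovary stands at 256 CPM.

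In liver, 1,2-dichlorobenzene was accompanied by low levels at 10 and 30 ppm, and at 250 ppm the level again overlapped that of the controls. The 9 control livers ranged from 9.55 to 39.6 CPM with a median of 26.3 CPM. The 2 livers at 1 ppm held 18.6 and 39.8 CPM. The 4 livers at 10 ppm held 0.569, 0.744, 1.08 and 2.6 CPM. Every one of these 4 lay below every control liver, and their raw counts were only 9 to 46.

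The 5 livers at 30 ppm held 0.859, 0.902, 1.45, 1.71 and 2.81 CPM, again all below the lowest control. At 100 ppm the values were 4.87, 7.36, 10.1, 13.4 and 13.6 CPM, of which 2 lay below all controls. The 6 livers at 250 ppm ran from 21 to 55.4 CPM with a median of 26.5 CPM, and 2 of them exceeded the highest control. The trough and the recovery are thus seen in single animals and do not rest on 1 library. Mean level was 18.8 times lower than in controls at 10 ppm and 15.2 times lower at 30 ppm.

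On the log2 scale the fitted differences from control in liver were 0.31 ± 0.48 (SE) at 1 ppm, -4.22 ± 0.52 at 10 ppm, -3.93 ± 0.46 at 30 ppm, -1.26 ± 0.38 at 100 ppm and 0.47 ± 0.33 at 250 ppm. These comparisons chose the gene, so no test is given. They are read beside the share of all 2601 liver probes called at an edgeR adjusted p below 0.05, which grew with concentration: 0%, 5.34%, 11.7%, 18.8% and 49.8%. Cdkn1a was thus lowest where 5.34% and 11.7% of probes were called and overlapped the controls where 49.8% were. The 5 hepatocyte marker probes summed to 115236 to 148888 CPM in controls, 134723 to 139346 CPM at 10 ppm and 123790 to 144407 CPM at 30 ppm.

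**Figure D2:**
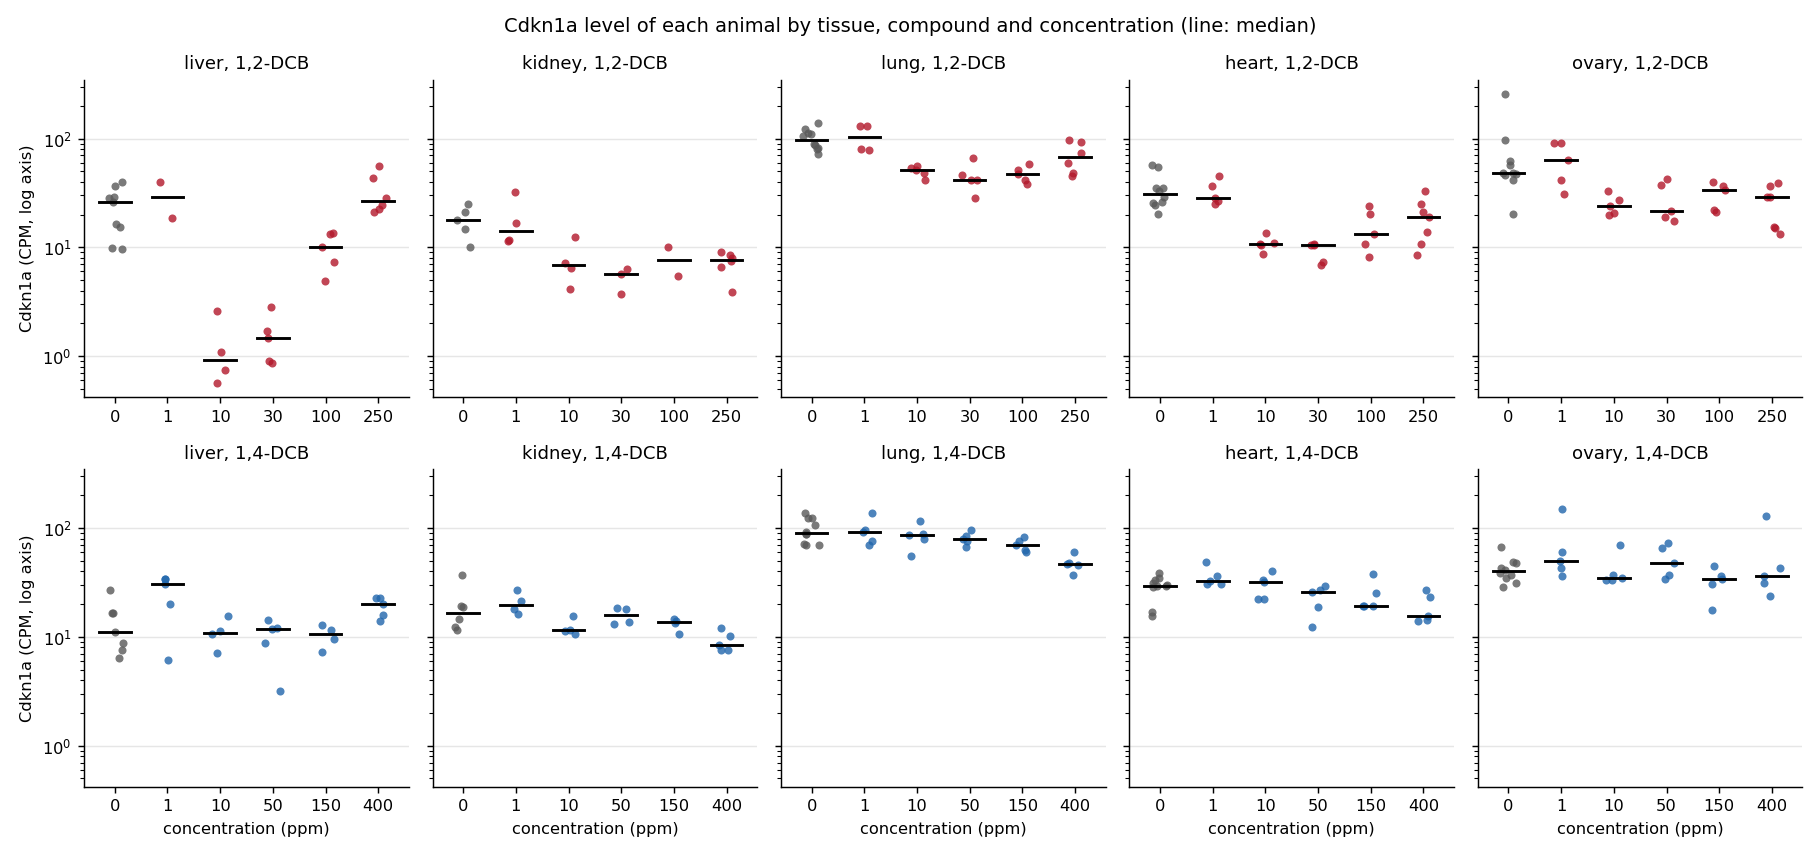
Cdkn1a level in every library used (vertical axes, CPM, log scale) by concentration (ppm) in 5 tissues, with 1,2-dichlorobenzene (1,2-DCB) above and 1,4-dichlorobenzene (1,4-DCB) below, 1 point a mouse and the group median as a line. The livers at 10 and 30 ppm 1,2-dichlorobenzene lie at 0.569 to 2.81 CPM, below every control liver, and the 250 ppm livers lie at 21 to 55.4 CPM.

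With 1,4-dichlorobenzene the liver showed no such trough. Control livers of that series ran from 6.46 to 26.8 CPM with a median of 11.1 CPM. The 5 livers at 1 ppm held 6.12, 20.1, 30.4, 34 and 34.1 CPM, 3 of them above every control. At 10 ppm the values were 7.14, 10.6, 11.3 and 15.7 CPM, all inside the control range. At 50 ppm they were 3.19, 8.73, 11.9, 12.1 and 14.4 CPM, with the lowest under the control range. At 150 ppm they were 7.2, 9.52, 11.6 and 12.8 CPM and at 400 ppm 13.9, 15.9, 20.2, 22.7 and 22.9 CPM. Groups overlapped the controls throughout.

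None of these 5 comparisons passed edgeR's quasi-likelihood test after adjustment over the 2601 liver probes. The log2 changes were 0.89 ± 0.36 (edgeR adjusted p = 0.823), -0.27 ± 0.40 (edgeR adjusted p = 1), -0.43 ± 0.38 (edgeR adjusted p = 0.883), -0.39 ± 0.40 (edgeR adjusted p = 0.788) and 0.50 ± 0.37 (edgeR adjusted p = 0.331) from 1 to 400 ppm. The shares of probes called were 0%, 0%, 0.769%, 5.96% and 31.6%. At 400 ppm Cdkn1a was therefore not among the 823 called liver probes.

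The gene was tested in the other 4 tissues with 1,2-dichlorobenzene and in all 5 tissues, liver included, with 1,4-dichlorobenzene, 45 comparisons in all. It passed in 12, all of them lower than control. Of these, 11 were among the 20 comparisons with 1,2-dichlorobenzene and 1 was among the 25 with 1,4-dichlorobenzene. Comparisons of 1 tissue and series share their 0 ppm mice. Replicates are separate animals by their numbers in the labels, and p-values set a difference between groups against the spread between animals.

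In kidney, Cdkn1a was lower from 10 ppm of 1,2-dichlorobenzene upwards and passed the test at 30 and 250 ppm. The 5 control kidneys held 10.0, 14.6, 17.7, 21.2 and 24.8 CPM, and those at 1 ppm 11.5, 11.8, 16.7 and 32 CPM. At 10 ppm the values were 4.15, 6.49, 7.17 and 12.5 CPM. At 30 ppm they were 3.75, 5.73 and 6.38 CPM. The 10 ppm group overlapped the controls through 1 mouse and the 30 ppm group did not.

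The 2 kidneys at 100 ppm held 5.41 and 10.01 CPM, and the 6 at 250 ppm ran from 3.87 to 8.98 CPM with a median of 7.69 CPM. All 6 lay below the lowest control. In log2 terms the change was 0.03 ± 0.30 at 1 ppm (edgeR adjusted p = 0.995) and -1.22 ± 0.31 at 10 ppm (edgeR adjusted p = 0.0681). It fell by 1.74 ± 0.36 at 30 ppm (edgeR adjusted p = 0.00621) and by 1.29 ± 0.28 at 250 ppm (edgeR adjusted p = 0.000975).

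With 2 mice left at 100 ppm, the difference of -1.20 ± 0.41 did not pass (edgeR adjusted p = 1). All 360 libraries gave -1.40 there (edgeR adjusted p = 0.00131). Of 2729 kidney probes, 0%, 0.44%, 0.696%, 0.0366% and 11.7% were called at the 5 concentrations, so at 30 ppm Cdkn1a was among 19 called probes. Without mouse 305 the 30 ppm call was lost (edgeR adjusted p = 0.0939). The summed hepatocyte list in these kidneys was 1446 to 1834 CPM in controls, 1893 to 2743 CPM at 30 ppm and 1764 to 2552 CPM at 250 ppm, and the part of this in the result was not tested.

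With 1,4-dichlorobenzene the kidney values were 11.7 to 36.8 CPM in 6 controls (median 16.7 CPM). They were 16.4, 17.9, 21.5 and 26.9 CPM at 1 ppm, 10.7, 11.5, 11.6 and 15.6 CPM at 10 ppm, and 13.2, 13.7, 17.9 and 18.4 CPM at 50 ppm. Those at 150 ppm were 10.7, 13.3, 13.9 and 14.5 CPM. At 400 ppm they were 7.58, 7.65, 8.42, 10.3 and 12 CPM, so that 4 of 5 lay below every control.

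The 400 ppm difference of -1.04 ± 0.28 stood just short of the threshold (edgeR adjusted p = 0.0511). DESeq2 gave -1.04 with an adjusted p of 0.0139. At 1, 10, 50 and 150 ppm the differences were 0.13 ± 0.29, -0.61 ± 0.29, -0.25 ± 0.29 and -0.52 ± 0.29 (edgeR adjusted p from 0.522 to 0.925). The shares called were 0.476%, 0%, 0%, 0% and 1.03%.

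In lung, where the gene was most abundant, it fell at 4 of 5 concentrations of 1,2-dichlorobenzene. The 10 control lungs ran from 71.5 to 138.3 CPM with a median of 97.9 CPM, and the 1 ppm lungs held 78.3, 79.3, 129.3 and 130.9 CPM. At 10 ppm the values were 41.8, 48.1, 51.3, 53.2 and 55.5 CPM. At 30 ppm they were 28.5, 41.3, 41.6, 46.1 and 65.6 CPM. No mouse of either group reached the lowest control.

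At 100 ppm the lungs held 38, 41.2, 47.6, 51.8 and 57.9 CPM, again all under the control range. At 250 ppm the 6 values ran from 45.3 to 97.8 CPM with a median of 67.1 CPM, and 3 of 6 lay under all controls. Log2 changes were 0.07 ± 0.19 at 1 ppm (edgeR adjusted p = 0.907) and -1.0 ± 0.19 at 10 ppm (edgeR adjusted p = 0.000288). They were -1.16 ± 0.19 at 30 ppm (edgeR adjusted p = 1.06e-05), -1.08 ± 0.19 at 100 ppm (edgeR adjusted p = 5.14e-05) and -0.51 ± 0.17 at 250 ppm (edgeR adjusted p = 0.0151).

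The log2 change in lung was therefore near -1 at the 3 middle concentrations and was closer to control at the highest, with no test of the difference between concentrations. Of 2756 lung probes, 0%, 1.89%, 4.57%, 6.53% and 32.6% were called. The 250 ppm call was lost without mouse 507 (edgeR adjusted p = 0.0593) or mouse 508 (edgeR adjusted p = 0.0666). Macrophage genes summed to 51840 to 79625 CPM at 250 ppm against 35413 to 51738 CPM in controls, and their part in the result was not tested.

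With 1,4-dichlorobenzene the lung passed the test at 400 ppm alone. The 10 controls ran from 69.4 to 138.7 CPM (median 89.97 CPM), and the 400 ppm lungs held 37.2, 46.2, 46.6, 48.3 and 60.8 CPM, all under the control range. The change was -1.02 ± 0.19 (edgeR adjusted p = 0.000151). The 20 lungs of the lower concentrations lay between 55.4 and 136.97 CPM, most of them inside the control range. Their differences were -0.04 ± 0.18, -0.18 ± 0.18, -0.27 ± 0.18 and -0.47 ± 0.18 at 1, 10, 50 and 150 ppm (edgeR adjusted p from 0.31 to 1). The shares called were 0%, 0.0726%, 1.2%, 0.472% and 2.61%.

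In heart, Cdkn1a fell at every concentration of 1,2-dichlorobenzene except 1 ppm. The 10 control hearts ran from 20.2 to 56.7 CPM with a median of 31 CPM, and the 1 ppm hearts held 25.1, 26.4, 28.6, 36.9 and 45.2 CPM. At 10 ppm the values were 8.68, 10.6, 10.7, 10.9 and 13.6 CPM. At 30 ppm they were 6.84, 7.31, 10.5, 10.6 and 10.7 CPM. These 10 hearts formed a tight band below every control.

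At 100 ppm the hearts held 8.11, 10.8, 13.1, 20.4 and 24.2 CPM, and at 250 ppm the 7 values ran from 8.55 to 33 CPM with a median of 18.9 CPM. Of these groups 3 of 5 and 4 of 7 mice lay below all controls, so both overlapped them. Log2 changes were -0.06 ± 0.24 at 1 ppm (edgeR adjusted p = 0.999), -1.64 ± 0.27 at 10 ppm (edgeR adjusted p = 3.92e-05) and -1.89 ± 0.27 at 30 ppm (edgeR adjusted p = 6.5e-06). They were -1.15 ± 0.26 at 100 ppm (edgeR adjusted p = 0.012) and -0.85 ± 0.23 at 250 ppm (edgeR adjusted p = 0.0088). The 100 ppm call was lost without mouse 401 (edgeR adjusted p = 0.0873), 403 (edgeR adjusted p = 0.077) or 404 (edgeR adjusted p = 0.0509).

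Of 2454 heart probes, 0%, 0.978%, 2.04%, 0.733% and 8.88% were called. At 100 ppm Cdkn1a was thus among 18 called probes. With 1,4-dichlorobenzene the control hearts ran from 15.7 to 38.4 CPM (median 29.6 CPM), and the 400 ppm hearts held 14.1, 14.2, 15.5, 23.1 and 27.2 CPM, 3 of 5 below all controls. No comparison passed: the changes were 0.32 ± 0.24, 0.07 ± 0.24, -0.35 ± 0.25, -0.26 ± 0.24 and -0.61 ± 0.25 (edgeR adjusted p = 0.093 for the last and 0.46 or more for the others). The shares called were 0%, 0%, 0%, 27.2% and 13%. At 150 ppm Cdkn1a was not among the 668 called heart probes.

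In ovary, Cdkn1a was lower from 10 ppm of 1,2-dichlorobenzene upwards and passed only at 250 ppm. The 10 control ovaries ran from 20.2 to 256 CPM with a median of 48.1 CPM. At 1 ppm the ovaries held 30.8, 41.7, 63.5, 90.2 and 91.8 CPM, at 10 ppm 19.8, 20.5, 24.1, 27.1 and 33.3 CPM and at 30 ppm 17.4, 18.9, 21.8, 37.7 and 42.4 CPM. At 100 ppm they held 21, 22, 33.3, 36.7 and 39.6 CPM, and at 250 ppm the 7 values ran from 13.2 to 39.3 CPM with a median of 29 CPM. All of these groups overlapped the controls, since 1 control ovary lay at 20.2 CPM and the next at 41.5 CPM.

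Log2 changes were -0.19 ± 0.36 at 1 ppm (edgeR adjusted p = 0.975), -1.54 ± 0.39 at 10 ppm (edgeR adjusted p = 0.0836), -1.39 ± 0.39 at 30 ppm (edgeR adjusted p = 0.0838) and -1.25 ± 0.38 at 100 ppm (edgeR adjusted p = 0.141). At 250 ppm the level fell by 1.51 ± 0.34 (edgeR adjusted p = 0.00192). DESeq2 passed the 10, 30 and 100 ppm comparisons too, with adjusted p of 0.00957, 0.0185 and 0.0483. Without control mouse 1, at 256 CPM, the 250 ppm change was -1.03 and still passed. Of 2713 ovary probes, 0%, 0.0737%, 0%, 0.0737% and 15.9% were called.

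With 1,4-dichlorobenzene nothing passed in ovary. Controls ran from 28.9 to 66.9 CPM (median 40.0 CPM), and the exposed groups from 17.6 to 150.7 CPM, with the 3 highest at 150.7, 128.5 and 73.3 CPM in 3 different concentrations. The log2 changes were 0.70 ± 0.35, -0.01 ± 0.36, 0.29 ± 0.36, -0.35 ± 0.37 and 0.33 ± 0.36 (edgeR adjusted p from 0.849 to 0.999). The shares called were 0%, 0%, 0%, 0.0369% and 0.479%. Over both series, 18 of the 50 comparisons with control had 0 edgeR calls on the whole panel, where 54 to 531 probes had an unadjusted p below 0.05 and DESeq2 called 0 to 31.

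**Figure D3:**
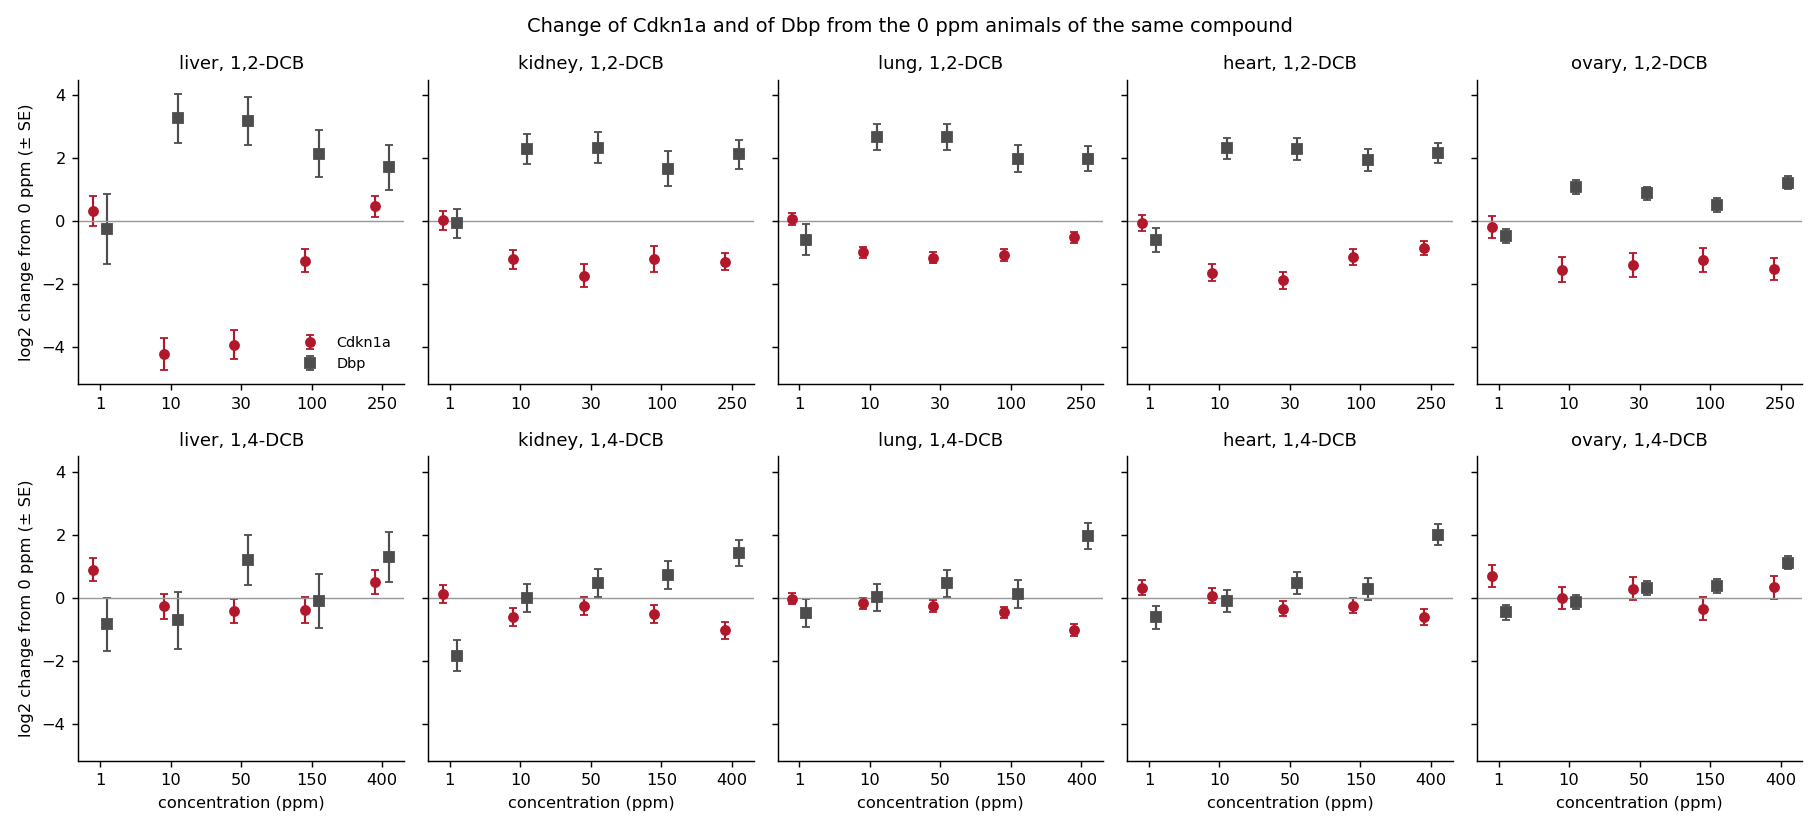
Log2 change of Cdkn1a (circles) and Dbp (squares) from the 0 ppm mice of the same series (vertical axes), with standard errors, by concentration (ppm) in 5 tissues and both compounds. The lowest Cdkn1a points are liver at 10 ppm (-4.22) and 30 ppm (-3.93) of 1,2-dichlorobenzene, where Dbp stands at 3.26 and 3.18.

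Red cell genes moved with the highest concentration of 1,2-dichlorobenzene in all tissues. At 250 ppm they summed to 270.0 to 4254 CPM in liver against 5304 to 20822 CPM in controls, and to 5485 to 66982 CPM in heart against 59332 to 259958 CPM. In kidney they summed to 1653 to 20523 CPM against 34671 to 51152 CPM and in lung to 17214 to 238745 CPM against 241886 to 450726 CPM. In ovary they summed to 261 to 5916 CPM against 3219 to 20679 CPM. The part of this in the 250 ppm results was not tested.

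The 2 compounds are isomers that differ in the place of the second chlorine, ortho in 1,2-dichlorobenzene and para in 1,4-dichlorobenzene, and they can be compared at 1 and 10 ppm. Outside the liver 8 such pairs were tested, as the change with 1,2 minus the change with 1,4. In heart at 10 ppm the level was lower with the 1,2 isomer, at a difference of -1.70 ± 0.35 (95% interval -2.41 to -1.0, edgeR adjusted p = 0.0028), where 1.14% of probes were called. The hearts concerned ran from 8.68 to 13.6 CPM with 1,2 and from 22.2 to 40.8 CPM with 1,4, without overlap. Of the 8 pairs this was the 1 that passed.

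At 10 ppm the difference in lung was -0.81 ± 0.25 (95% interval -1.32 to -0.31, edgeR adjusted p = 0.173), with lungs at 41.8 to 55.5 CPM for 1,2 and 55.4 to 117.4 CPM for 1,4. In ovary it was -1.53 ± 0.52 (95% interval -2.57 to -0.49, edgeR adjusted p = 0.322) and in kidney -0.61 ± 0.42 (95% interval -1.46 to 0.24, edgeR adjusted p = 0.966). The lung and ovary intervals leave out 0 while the adjusted p does not pass, so these pairs are not shown to act alike. The shares called at 10 ppm were 0.363% in lung, 0% in ovary (234 probes at an unadjusted p below 0.05 and 1 by DESeq2) and 0.22% in kidney.

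At 1 ppm the differences were -0.11 ± 0.42 in kidney (95% interval -0.95 to 0.73), 0.11 ± 0.26 in lung (-0.41 to 0.63), -0.38 ± 0.34 in heart (-1.07 to 0.31) and -0.89 ± 0.51 in ovary (-1.90 to 0.13). None passed (edgeR adjusted p from 0.925 to 0.996), and 0% of probes were called, with 83 to 274 at an unadjusted p below 0.05 and 0 by DESeq2. In liver, as a description, the difference was -0.58 ± 0.62 at 1 ppm and -3.95 ± 0.62 at 10 ppm. The other concentrations are not shared between the isomers and are not compared.

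Both series had their own 0 ppm mice, which gives a level of difference with no exposure. The 1,2 minus 1,4 difference between these controls was 0.79 ± 0.30 in ovary (edgeR adjusted p = 0.103), 0.24 ± 0.20 in heart (edgeR adjusted p = 0.574), 0.04 ± 0.14 in lung (edgeR adjusted p = 0.964) and -0.09 ± 0.27 in kidney (edgeR adjusted p = 0.899). In liver it was 0.80 ± 0.32, as a description. Shares of probes called between control series were 6.16% in ovary, 1.87% in heart, 0.879% in kidney and 0.363% in lung. The differences in ovary (95% interval 0.20 to 1.38) and liver (0.15 to 1.45) were the widest of the 5.

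Dbp stood on the other side of control in most of the same libraries. In liver its level was 3.92 to 95.2 CPM in the 1,2 controls, 168, 262, 335 and 407 CPM at 10 ppm and 90.9, 248.8, 268, 359 and 422 CPM at 30 ppm. All 4 livers at 10 ppm and 4 of 5 at 30 ppm exceeded every control. Its log2 differences in liver were 3.26 ± 0.79 at 10 ppm, 3.18 ± 0.76 at 30 ppm, 2.14 ± 0.75 at 100 ppm and 1.70 ± 0.72 at 250 ppm. So at 250 ppm the fitted Dbp difference was still positive while that of Cdkn1a was back at 0.47 ± 0.33. Dbp too overlapped the controls there: the 6 livers held 29.9 to 258.9 CPM, and 2 of them exceeded every control.

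In the other tissues the 10 ppm differences of Dbp were 2.67 ± 0.42 in lung, 2.31 ± 0.34 in heart, 2.28 ± 0.48 in kidney and 1.07 ± 0.22 in ovary, beside Cdkn1a differences of -1.0, -1.64, -1.22 and -1.54. At 400 ppm 1,4-dichlorobenzene they were 1.42 ± 0.42 in kidney, 1.97 ± 0.42 in lung, 2.00 ± 0.34 in heart, 1.11 ± 0.22 in ovary and 1.3 ± 0.80 in liver. Beside them Cdkn1a stood at -1.04, -1.02, -0.61, 0.33 and 0.50.

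Mice of 1 group also differed from each other in this way. With each group mean subtracted, log2 CPM of Cdkn1a and Dbp in the same library had a Pearson r of -0.63 and a Spearman rho of -0.58 over 61 livers. In kidney r was -0.65 and rho -0.67 (51 libraries), in heart -0.71 and -0.74 (72), in ovary -0.44 and -0.48 (72) and in lung -0.26 and -0.28 (70). Without the 2 libraries farthest from the median of Dbp, r was -0.53 in liver, -0.59 in kidney, -0.71 in heart, -0.44 in ovary and -0.30 in lung. The 2 values of a point share library, depth and normalization.

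In the 0 ppm mice alone r was -0.48 in liver (16 mice), -0.87 in kidney (11), -0.61 in heart (20), -0.51 in ovary (20) and 0.08 in lung (20). Lung was thus the tissue without the inverse relation in unexposed mice. Within each series r ran from -0.77 (heart, 1,2 series) to -0.21 (lung, 1,2 series). When Cdkn1a of 1 tissue was set against Dbp of another tissue of the same mice, which share no library, all 20 ordered pairs were negative, from -0.67 to -0.06 with a median of -0.39 over 43 to 72 mice. The relation was part of the choice of the gene and is given with no p.

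**Figure D4:**
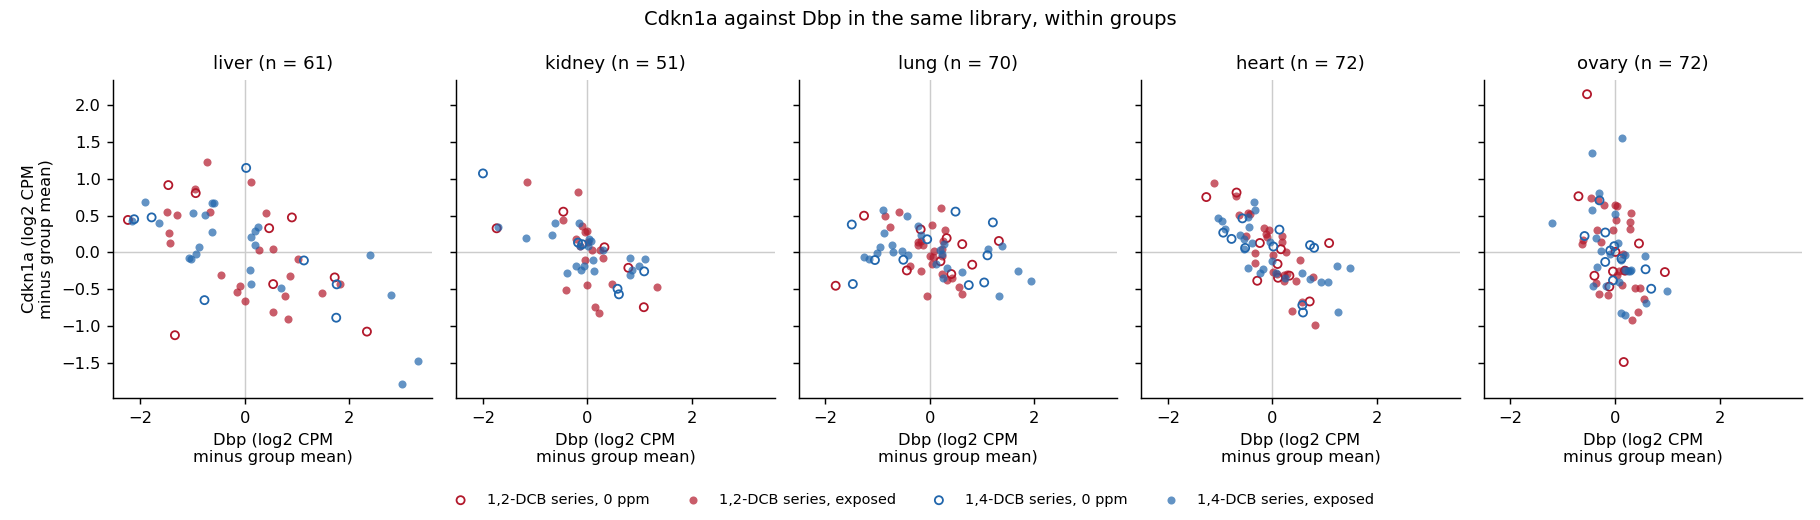
Cdkn1a against Dbp in the same library, both as log2 CPM minus the group mean, in 5 tissues and both series, 1 point a mouse with the 0 ppm mice as open circles. The cloud slopes down in heart (r = -0.71), kidney (-0.65) and liver (-0.63) and is nearly flat in lung (-0.26).

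No collection time for single animals is given in the sources used here, and the part of time of day in these results was not tested.

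Mice with more Cdkn1a than their group in 1 tissue tended to have more in others, with the ovary apart. Over libraries minus their group mean, r was 0.63 between kidney and heart (51 mice, permutation within groups, p = 1e-05, the smallest that 100000 permutations can give, adjusted over 10 pairs to p = 0.0001), with rho 0.67. It was 0.56 between liver and kidney (43 mice, rho 0.57, permutation adjusted p = 0.00385), 0.49 between kidney and lung (49 mice, rho 0.48, permutation adjusted p = 0.00472) and 0.48 between lung and heart (70 mice, rho 0.47, permutation adjusted p = 0.00075). It was 0.47 between liver and heart (61 mice, rho 0.49, permutation adjusted p = 0.00103) and 0.41 between liver and lung (59 mice, rho 0.41, permutation adjusted p = 0.00535).

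All 360 libraries take in those marked as not used, such as livers of low sequencing depth. With them r was 0.24 between liver and kidney (permutation adjusted p = 0.0763) and 0.23 between liver and lung (permutation adjusted p = 0.0859), both no longer past the threshold. By rank both still passed, with rho 0.40 (permutation adjusted p = 0.00347) and 0.29 (permutation adjusted p = 0.0215). Kidney and ovary passed by rank as well with all libraries, with rho 0.32 (permutation adjusted p = 0.0167). In the libraries used, without the 2 mice farthest from the median of the first tissue, r of the pairs above ran from 0.36 (liver and lung) to 0.63 (kidney and heart). The 4 pairs with ovary had r of -0.01 with liver, 0.13 with kidney, 0.01 with lung and 0.19 with heart, and none passed (permutation adjusted p from 0.224 to 0.967). By rank, heart and ovary passed, with rho 0.30 (permutation adjusted p = 0.0324). In the 0 ppm mice alone kidney and heart remained past the threshold (r = 0.82, 11 mice, permutation adjusted p = 0.0239) and the other 9 pairs did not.

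Known p53 targets gave 1 call in all in the livers where Cdkn1a was lowest. Of 29 genes listed, 23 probes were tested in liver. Of all liver probes 5.34% and 11.7% were called at 10 and 30 ppm, so few calls would fall to 23 probes by that share alone. At 10 ppm 1,2-dichlorobenzene 0 passed edgeR's test (6 at an unadjusted p below 0.05 and 1 by DESeq2), with a list median of -0.21 on the log2 scale. At 30 ppm 1 passed, Aen, an exonuclease gene, at -0.48 ± 0.14 (edgeR adjusted p = 0.013), with a median of -0.15. Medians over all probes lay between -0.04 and 0.02 in every comparison.

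Mdm2, which encodes the ubiquitin ligase that restrains p53, stood at -0.19 ± 0.26 at 10 ppm and 0.12 ± 0.23 at 30 ppm in liver. Ccng1, cyclin G1, stood at -0.21 ± 0.10 and -0.09 ± 0.09. Phlda3, an inhibitor of Akt, stood at -0.52 ± 0.42 and -0.95 ± 0.41. Gadd45a lay above control, at 0.97 ± 0.35 and, on its other probe, 0.59 ± 0.43 at 10 ppm, and at 0.61 ± 0.33 and 0.49 ± 0.41 at 30 ppm. Gdf15 stood at -0.80 ± 0.40 and -0.61 ± 0.36, Btg2 at -0.45 ± 0.24 and -0.46 ± 0.22, and Bax at -0.17 ± 0.22 and -0.42 ± 0.21. None of these passed, and Cdkn1a in the same livers was at -4.22 and -3.93.

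At 100 and 250 ppm Cdkn1a stood at -1.26 and 0.47 in liver, and the median of the p53 target probes at 0.16 and 0.03. At 100 ppm 3 of 23 probes rose and 0 fell, where 18.8% of all liver probes were called: Phlda3 at 2.26 ± 0.34 (edgeR adjusted p = 1.1e-06), Ddit4 at 1.06 ± 0.25 and Ccng1 at 0.51 ± 0.09. At 250 ppm 8 of 23 probes rose and 5 fell, where 49.8% of all liver probes were called. Among the risers were Phlda3 at 3.38 ± 0.33, Gadd45a at 1.11 ± 0.31, Ccng1 at 0.88 ± 0.08, the stress cytokine gene Gdf15 at 0.80 ± 0.32, Mdm2 at 0.69 ± 0.22 and the death effector gene Bax at 0.53 ± 0.19. The fallers were Plk3, a polo-like kinase gene, at -0.96 ± 0.35, Xpc, a DNA damage sensor gene, at -0.70 ± 0.17, Fas at -0.46 ± 0.13 and -0.27 ± 0.10 on its 2 probes, and Ei24 at -0.16 ± 0.07. At 400 ppm 1,4-dichlorobenzene 5 rose and 0 fell, where 31.6% of all probes were called, with Phlda3 at 2.82 ± 0.36, Gdf15 at 1.46 ± 0.36 and Ccng1 at 0.55 ± 0.09. At 150 ppm of that compound, with 5.96% of all probes called, 1 rose, Phlda3, at 1.45 ± 0.38.

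In the other tissues the p53 target calls varied with the concentration. At 10 and 30 ppm 1,2-dichlorobenzene 0 probes of the list passed in kidney, lung, heart or ovary (0 to 6 at an unadjusted p below 0.05 and 0 to 2 by DESeq2). Of all probes 0% to 4.57% were called in these comparisons. At 100 ppm Fas, a death receptor gene, fell in lung (-0.44 ± 0.13) and heart (-0.43 ± 0.11), where 6.53% and 0.733% of all probes were called. At 250 ppm 2 of 22 fell in kidney, among them Btg2 at -0.56 ± 0.15, and 4 of 19 probes fell in heart, 2 of them of Gadd45a, where 11.7% and 8.88% of all probes were called. In lung 3 of 22 rose and 7 fell, with 32.6% of all probes called, and with Gdf15 at 1.14 ± 0.38 and Ccng1 at 0.62 ± 0.13 among the risers, and in ovary 1 of 21 rose (Phlda3, 0.72 ± 0.17) and 4 fell, with 15.9% called. In heart 2 rose and 4 fell at 150 ppm 1,4-dichlorobenzene, and 1 rose (Phlda3, 1.19 ± 0.32) and 3 fell at 400 ppm, with 27.2% and 13% of all probes called. Aen, Ddit4, Fas, Plk3, Xpc, Ei24 and the other genes named here outside the fixed naming rule were chosen after their values were seen.

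Among the partners of p21 and other cell cycle and replication genes listed, none passed the test in liver at 10 and 30 ppm. Of 32 probes of the cell cycle list 0 passed edgeR's test at either concentration (3 at an unadjusted p below 0.05 at each and 0 by DESeq2), with medians of -0.16 and -0.06. Of all liver probes 5.34% and 11.7% were called there. At 100 ppm 17 rose and 1 fell (median 0.76), with 18.8% of all probes called, and at 250 ppm 23 rose and 1 fell (median 2.28), with 49.8% called. The Cdkn1a levels at 250 ppm overlapped those of the controls.

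Mki67, the proliferation marker Ki-67, stood at -2.10 ± 1.01 and -1.39 ± 0.85 in liver at 10 and 30 ppm, which did not pass. It rose by 2.60 ± 0.59 at 100 ppm, 5.10 ± 0.57 at 250 ppm and 3.56 ± 0.60 at 400 ppm 1,4-dichlorobenzene. Pcna rose by 0.48 ± 0.13, 1.62 ± 0.12 and 1.19 ± 0.13 in the same 3 groups. E2f1, a transcription factor of S-phase genes, rose by 1.44 ± 0.33, 2.33 ± 0.32 and 1.42 ± 0.34. Ccnd1, cyclin D1, fell by 1.44 ± 0.34 at 100 ppm and by 1.28 ± 0.35 at 400 ppm and stood at 0.40 ± 0.29 at 250 ppm.

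With 1,4-dichlorobenzene the cell cycle list in liver had 2 risers at 50 ppm (Top2a and Cdk1), 7 at 150 ppm and 20 at 400 ppm, with 0, 0 and 2 fallers, where 0.769%, 5.96% and 31.6% of all probes were called. In lung 4 of 33 probes rose at 100 ppm 1,2-dichlorobenzene, 20 rose and 3 fell at 250 ppm, and 6 rose at 50 ppm 1,4-dichlorobenzene, where 6.53%, 32.6% and 1.2% of all lung probes were called. In ovary 7 of 32 rose at 250 ppm (15.9% of all probes called) and in kidney 2 of 33 did (11.7%), Cdk4 at 0.19 ± 0.06 and Ccne2 at 0.88 ± 0.30. In heart 2 of 27 probes passed at each of 10, 30 and 250 ppm, all lower, with 0.978%, 2.04% and 8.88% of all heart probes called. At 10 ppm Top2a fell by 1.53 ± 0.36 and Mki67 by 3.51 ± 0.92, and at 30 ppm Ccnb1 fell by 3.62 ± 0.91 and Top2a by 1.40 ± 0.35. At 250 ppm Top2a (-1.06 ± 0.30) and Mki67 (-1.98 ± 0.67) fell in heart. These heart genes were named after their values were seen.

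**Figure D5:**
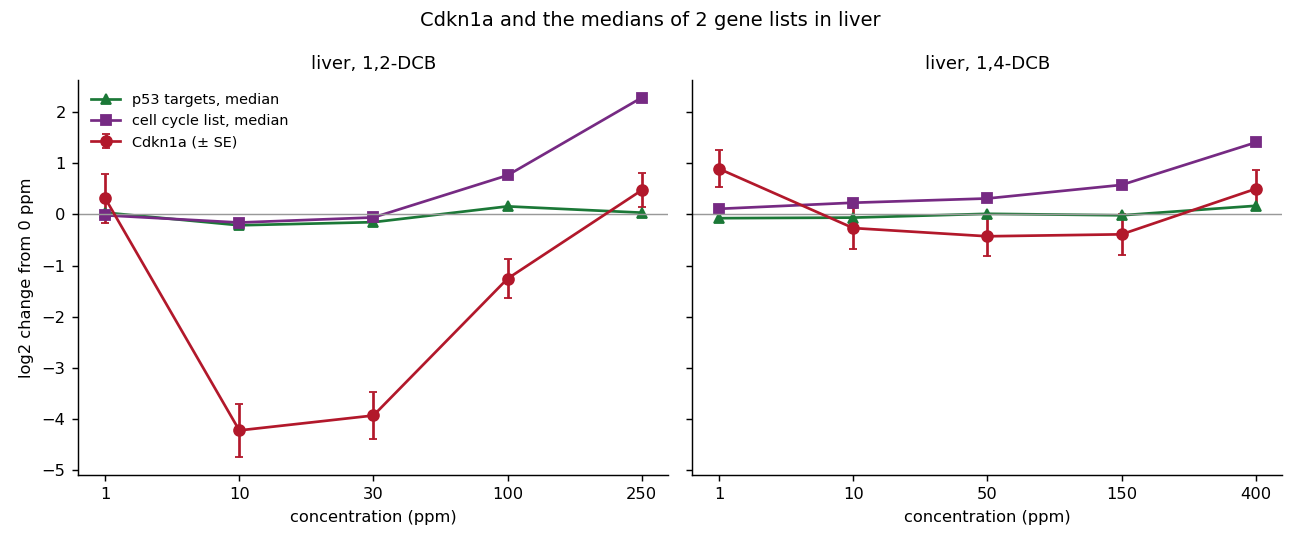
Log2 change in liver of Cdkn1a (circles, with standard error) and the median log2 change of the p53 target probes (triangles) and of the cell cycle probes (squares) by concentration (ppm) of each compound. Cdkn1a lies at -4.22 and -3.93 at 10 and 30 ppm 1,2-dichlorobenzene, where the p53 target medians are -0.21 and -0.15 and the cell cycle medians -0.16 and -0.06.

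Other inhibitors of cyclin-dependent kinases had 3 or 4 probes tested per tissue, of 7 genes listed, too few to set their share of calls against that of the panel. Cdkn3, a phosphatase of cyclin-dependent kinases, rose in liver by 3.44 ± 0.66 at 100 ppm, 5.55 ± 0.65 at 250 ppm and 3.32 ± 0.67 at 400 ppm 1,4-dichlorobenzene. In lung Cdkn2b fell by 0.43 ± 0.13 at 100 ppm and Cdkn1b, the close relative p27, by 0.47 ± 0.12 at 250 ppm. No other probe of the list passed edgeR's test in the 50 comparisons, and none passed in any tissue at 10 or 30 ppm (0 or 1 at an unadjusted p below 0.05 and 0 by DESeq2). These 3 genes were named after their values were seen.

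Of 20 clock genes listed, 6 probes were tested. In liver 2 rose and 2 fell at 10 ppm, and 3 rose and 2 fell at 30 ppm, with 5.34% and 11.7% of all probes called. There Hlf, a relative of Dbp with the same kind of DNA-binding domain, rose by 2.05 ± 0.35 at 10 ppm and 2.31 ± 0.33 at 30 ppm, while Nfil3, a repressor that binds the same sites, fell by 1.11 ± 0.20 and 1.12 ± 0.19. Cry1, a repressor of the core clock, fell by 0.87 ± 0.25 and 0.88 ± 0.23. At 250 ppm, where Cdkn1a overlapped the controls in liver, Hlf was still up by 1.28 ± 0.32 and Nfil3 down by 1.41 ± 0.18.

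In lung at 10 ppm Hlf rose by 1.68 ± 0.25 and Nfil3 fell by 1.23 ± 0.21, and in heart Hlf rose by 1.05 ± 0.18 and Nfil3 fell by 1.06 ± 0.17. In heart 4 of 6 clock probes rose and 1 fell at 10, 30, 100 and 250 ppm 1,2-dichlorobenzene and at 400 ppm 1,4-dichlorobenzene, the last without a Cdkn1a call. Of all heart probes 0.978%, 2.04%, 0.733%, 8.88% and 13% were called there. In kidney 3 rose at 10, 30 and 250 ppm and 1 fell at 250 ppm (Nfil3, -1.57 ± 0.26), with 0.44%, 0.696% and 11.7% of all kidney probes called. In ovary 2 rose at 10 ppm, and 2 rose and 1 fell at 250 ppm, with 0.0737% and 15.9% of all ovary probes called. No clock probe passed edgeR's test in kidney at 100 ppm (3 at an unadjusted p below 0.05, 0 by DESeq2) or in ovary at 30 ppm (4 and 2) and 100 ppm (2 and 0), where the median of Cdkn1a lay below that of the controls. Of all probes only 0.0366%, 0% and 0.0737% were called there. In the 25 comparisons at 1 ppm or at 1,4-dichlorobenzene below 400 ppm, 0 clock probes passed edgeR's test (0 to 2 at an unadjusted p below 0.05 and 0 to 2 by DESeq2), and Cdkn1a passed in none of those tested. The shares of all probes called in these 25 ran from 0% to 27.2% (heart, 150 ppm). Several probes of this list stood out in earlier results of these data, so their count is not independent support.

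Glucocorticoid and fasting genes and immediate early genes were counted in the livers at 10 and 30 ppm, where 5.34% and 11.7% of all probes were called. Of 14 liver probes of the first list, 0 passed at 10 ppm (2 at an unadjusted p below 0.05 and 1 by DESeq2), and 1 rose (Ppargc1a, 0.61 ± 0.21) and 1 fell (Fgf21, -1.85 ± 0.63) at 30 ppm. Fkbp5, a standard glucocorticoid target, stood at 0.48 ± 0.22 at 10 ppm and 0.29 ± 0.21 at 30 ppm and did not pass. Tsc22d3, the glucocorticoid-induced leucine zipper, had 1 probe at 0.06 ± 0.14 and 0.02 ± 0.23 on its other probe at 10 ppm. Of 15 immediate early probes 0 passed at 10 ppm (2 at an unadjusted p below 0.05 and 1 by DESeq2) and 1 fell at 30 ppm, Gadd45g, at -1.46 ± 0.46. Ppargc1a, Fgf21 and Gadd45g were named after their values were seen.

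Genes with courses most like that of Cdkn1a were found among 2272 other probes that passed the filter in all 5 tissues. Over the 60 group means, centred per tissue, the highest Pearson r were Tubb2a at 0.78, Ifi44 and Ifit2 at 0.74, and Mpzl1 and Cmpk2 at 0.73. The lowest were Dbp at -0.75, Hlf at -0.74, Atg3 at -0.73 and Polg2 and Foxo3 at -0.68. Dbp was thus the lowest of these 2272 probes by this measure, and its opposite course was part of the choice of Cdkn1a. These means share control groups and libraries.

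Over the 326 libraries minus their group mean, the highest r were Rnf125 at 0.51, Nfil3 at 0.47, Il4ra at 0.44, Col4a1 at 0.43 and C730049O14RIK at 0.43. The lowest were Dbp at -0.52, Hlf at -0.49, a RIKEN clone gene at -0.43, Jak1 at -0.38 and Hspa8 at -0.35. In liver alone, over 61 libraries and 2600 other probes, the highest were Igf1 at 0.62, Ppard at 0.58, Ccnf at 0.57 and Egfr and Cdk1 at 0.55. The lowest there were Dbp at -0.63, Bid at -0.61, Cyth1 and Hlf at -0.58 and Tk1 at -0.57. Dbp was the lowest probe in all 3 rankings. The rankings overlap in libraries and the relation to Dbp was part of the choice of the gene, so they are not independent support. The values are descriptions, over points that share libraries and depth.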

How the data were processed

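Values in the deposited table are whole-number counts per probe and library, which the authors made from TempO-Seq reads. The submitters' processing notes name Bowtie 1.3.1. The genome build and probe manifest they used are not given in the sources used here. Of 360 libraries, 34 marked as not used by the labels (21 kidney, 11 liver, 2 lung) were left out. Reasons in the labels include low sequencing depth, low alignment rate, potential tissue contamination and an outlying place. Some probes hold only multiples of a whole number: 59 of the probes seen in over 100 libraries had a factor of 2 or more, and the Cdkn1a and Dbp probes had a factor of 1. No 2 libraries of a group were identical (824 pairs).

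Each tissue was fitted alone in R 4.3.3 with edgeR 4.0.16 over its 12 groups, with filterByExpr, TMM factors and the quasi-likelihood test, two-sided. P-values were adjusted by Benjamini-Hochberg over all probes tested, at a threshold of 0.05. Levels are CPM, and log2 CPM used a prior count of 2. Permutation tests drew 100000 permutations, two-sided. The scripts were tested on simulated data. DESeq2 1.42.0, other scalings, no filter, all libraries, a Dbp covariate and the leaving out of single animals were alternatives. Animal numbers join the tissues of a mouse, and the replicate block served only the order of tissues, since the groups compared elsewhere hold different mice.

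The gene, the gene lists and the tests were chosen with earlier results of these data known. Genes named are Cdkn1a, Dbp, fixed members of the lists in liver with 1,2-dichlorobenzene and at the highest concentrations, and the 5 highest and 5 lowest r with Cdkn1a. Trp53inp1, Ccne1, Tef, Per1, Per2, Nr1d1, Nr1d2 and Sgk1 of that rule were not analysed here. Promoter windows come from RefSeq (GRCm38.p6). Intervals are for the fitted difference between groups, given the spread between animals.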

Additional observations from a re-analysis of the deposited data

Results flagged for a closer look

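Single animals stood apart from their group in Cdkn1a level, on the linear CPM scale, in 5 of 57 groups of 4 to 10 mice. The rule sets the gap to the next mouse against the range of the group. Its rate of about 1 in 20 by chance holds for normally distributed values. Linear CPM was not checked for that, so the 5 groups are not read as an excess. All 5 were the highest of their group and 4 of them were ovaries. Control mouse 1 of the 1,2 series held 256 CPM in ovary, with the next mouse at 97.6 CPM. Its ovary library had 1402 Cdkn1a counts of 5436940 in all. Mouse 102 at 1 ppm 1,4-dichlorobenzene held 150.7 CPM in ovary, with the next at 59.8 CPM. Mouse 203 at 10 ppm held 69.7 CPM, with the next at 36.9 CPM, and mouse 501 at 400 ppm held 128.5 CPM, with the next at 42.7 CPM. Steroid and granulosa cell genes summed to 2380 CPM in the ovary of mouse 102 (1337 to 2198 CPM in the rest of its group) and to 2552 CPM in that of mouse 501 (1041 to 1833 CPM). Macrophage genes summed to 1860 CPM in that of mouse 203 (1246 to 1493 CPM). In mouse 102 macrophage genes were the highest of its group too, at 1540 CPM (1079 to 1519.5 CPM in the rest). Neutrophil genes also stood high in mouse 102, at 26.6 CPM (5.45 to 8.70 CPM in the rest). The lung epithelium probe stood high in mouse 203, at 338 CPM (121 to 230 CPM in the rest). The lists that stood high differed between mice, and not all lists are given here. Steroid and granulosa cell genes lay inside the group in mouse 203, at 1808 CPM (1555 to 2135 CPM in the rest). Macrophage genes did so in mouse 501, at 1459 CPM (1021 to 1618 CPM). In control mouse 1 the steroid and granulosa cell genes (5935 CPM, others 1948 to 17493) and macrophage genes (1489 CPM, others 1164 to 3619) lay inside the group too. In kidney, control mouse 2 of the 1,4 series held 36.8 CPM, with the next at 19.1 CPM, and its macrophage genes summed to 986 CPM, the highest of its group. Its T cell, B cell, neutrophil and endothelium genes were the highest of that group too. The part of these markers in the level was not tested.

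The change in heart at 10 ppm differed between the isomers, by -1.70 on the log2 scale (1,2 minus 1,4, edgeR adjusted p = 0.0028), with 5 of 5 hearts lower than every control with 1,2-dichlorobenzene and 0 of 5 with 1,4-dichlorobenzene.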

How the results depend on the processing

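No filter and relative log expression factors changed no call of Cdkn1a. With Dbp as a covariate, a gene that exposure itself changed, calls are used only to sort the values, and no conclusion is drawn from them. Liver with 1,2-dichlorobenzene stood at -3.08, -2.81 and -0.48 at 10, 30 and 100 ppm, and liver with 400 ppm 1,4-dichlorobenzene at 1.10. Outside liver with 1,2-dichlorobenzene, comparisons were sorted by sign and by passing the threshold, not by the size of the shift. Those that no longer passed were kidney 30 (-0.69) and 250 ppm (-0.34), and lung 10 (-0.69) and 250 ppm (-0.31). The same held for heart 10 (-0.46), 30 (-0.74) and 100 ppm (-0.22), and ovary 250 ppm (-0.52). In 31 of the 50 comparisons with control the sorting did not change, although the values themselves could shift. Among these were lung at 30 and 100 ppm 1,2-dichlorobenzene and lung at 400 ppm 1,4-dichlorobenzene. Signs turned in heart at 250 ppm (0.13), kidney 1 ppm (-0.036), kidney 1,4 at 1 (-0.43) and 50 ppm (0.0021), and heart 1,4 at 1 (-0.0087), 10 (-0.063) and 400 ppm (0.34). The isomer difference was -2.47 in liver and -0.40 in heart at 10 ppm, and 0.40 and 0.33 in kidney at 1 and 10 ppm. DESeq2 added kidney 10 ppm (-1.23), kidney 400 ppm (-1.04) and ovary 10, 30 and 100 ppm (-1.54, -1.39, -1.25). All 360 libraries added kidney 100 ppm (-1.40) and turned lung 1 ppm (-0.090) and its isomer difference (-0.050). Kidney 400 ppm passed at -1.04 with undone attenuation factors or with the 1,4 series fitted alone. The cause of these shifts was not tested.

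With TMM over all tissues ovary minus heart was -1.22 and kidney minus liver -1.39. With the replicate block for the mouse, kidney minus liver was -0.025 and no other order turned. In 0 ppm mice the relation to Dbp was -0.87 in kidney and 0.078 in lung. Between tissues the 0 ppm mice gave 0.80 (liver and kidney), 0.33 (liver and lung), 0.50 (liver and heart), 0.61 (kidney and lung) and 0.42 (lung and heart), none passing, and -0.33 (lung and ovary). All libraries gave 0.24 (liver and kidney) and 0.23 (liver and lung), no longer passing by r but passing by rank, and 0.010 (liver and ovary) and -0.043 (lung and ovary).

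Leaving out single mice, by 100 refits, gave these ranges. Kidney with 1,2-dichlorobenzene ran from -0.12 to 0.19, -1.37 to -1.08, -1.89 to -1.55, -1.35 to -1.05 and -1.44 to -1.14 from 1 to 250 ppm, and with 1,4-dichlorobenzene from 0.03 to 0.44, -0.71 to -0.30, -0.36 to 0.04, -0.63 to -0.22 and -1.17 to -0.74. Lung from 10 to 250 ppm ran from -1.04 to -0.94, -1.34 to -1.04, -1.16 to -1.01 and -0.64 to -0.42, and 400 ppm from -1.13 to -0.95. Heart ran from -0.13 to 0.05, -1.73 to -1.53, -1.95 to -1.76, -1.38 to -1.0 and -1.04 to -0.73, and ovary from -0.30 to 0.29, -1.65 to -1.06, -1.50 to -0.92, -1.36 to -0.77 and -1.65 to -1.03. Single mice turned kidney 1 ppm (-0.04 without 7, -0.12 without 8), kidney 1,4 50 ppm (0.043 without 2), heart 1 ppm (0.04 without 2, 0.048 without 3) and ovary 1 ppm (0.29 without 1). Refits for liver and for the remaining 1,4 groups and controls were not run. Exposed mice were also not left out in kidney at 1, 10 and 100 ppm, lung and heart at 1 ppm and ovary at 1 to 100 ppm 1,2-dichlorobenzene. The ranges for those kidney, heart and ovary groups thus rest on controls alone, and the lung ranges on exposed mice alone. In kidney at 100 ppm 1,2-dichlorobenzene the difference of mean log2 CPM without 1 mouse of either group ran from -1.62 to -0.75. Differences of mean log2 CPM without 1 mouse ran from -4.61 to -3.93 in liver at 10 ppm and from -4.05 to -3.65 at 30 ppm. At 9 to 47 counts in these livers, depth limits single values more than elsewhere.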
